A study of Mus musculus with 6 samples.

Results

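The 10 genes described here are read-outs and parts of the canonical Wnt pathway in the liver: Axin2, Lgr5, Tbx3, Sp5, Nkd1, Rnf43, Znrf3, Lect2, Ctnnb1 and Tcf7l2. They were chosen by symbol, with earlier results of these data known. Each had 1 probe set that the platform annotation assigns to that symbol and no other. They were 10 of 19938 genes measured in this way. The arrays came from young, weaned CyclinB1-GFP transgenic mice aged 3.5 weeks, and every array, GFP-negative ones included, comes from animals carrying this reporter. The livers of 3 individual mice were perfused and dissociated, and cells were sorted by flow cytometry into a GFP-positive fraction, called replicating in the labels, and a GFP-negative fraction, called quiescent, giving 3 arrays per group. The labels name no gate other than GFP, and no untransgenic mouse was analysed here. The question addressed is whether Wnt target genes are expressed at other levels in dividing than in resting cells of a young liver.

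When a Wnt protein binds a Frizzled receptor and its LRP co-receptor, the complex that degrades beta-catenin is inactivated. Beta-catenin then enters the nucleus, binds TCF/LEF factors on DNA and activates target genes, several of which feed back on the pathway. In the liver, endothelial cells of the central vein release Wnt proteins, and the hepatocytes next to them show the strongest beta-catenin activity and express a pericentral set of genes.

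None of the 10 genes passed at an adjusted p below 0.05 (limma with Benjamini-Hochberg adjustment over all 19938 genes), where 0.115% of all genes passed as lower and 1.55% as higher in GFP-positive cells. Axin2, Lgr5, Tbx3, Lect2 and Znrf3 had log2 differences between -0.50 and -0.67, each with an unadjusted p below 0.05. Such a p in the lower direction was found in 3.79% of all genes, and no member had one in the higher direction, where 5.01% of all genes did. Sp5, Nkd1, Rnf43, Ctnnb1 and Tcf7l2 differed by less than 0.2 in either direction. The median difference of the 10 was -0.35, beside -0.03 over all genes, and 8 of the 10 lay below 0, as did 55.7% of all genes. The members were chosen with earlier results of these data known, so these contrasts with all genes are no independent evidence of direction. Differences are GFP-positive minus GFP-negative log2 intensity, given ± SE from limma, and group levels are means ± SD over n = 3 arrays. In bulk RNA, fewer cells of a type and less RNA per cell cannot be told apart.

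Of the 10, 9 lay above background on all 3 arrays of both groups, as did 54.9% of all genes. Background was taken as the 95th percentile of 1242 probe sets for olfactory, vomeronasal and bitter taste receptors, genes of sensory tissue, and stood at a log2 intensity of 4.36 to 4.59 on the 6 arrays. Lect2 lay 5.73 to 6.47 above that level on the log2 scale, Ctnnb1 2.88 to 3.65, Tcf7l2 2.83 to 3.56, Axin2 1.09 to 2.12 and Tbx3 0.97 to 1.89. Znrf3 (0.32 to 1.34), Nkd1 (0.56 to 0.98), Lgr5 (0.15 to 1.62) and Rnf43 (0.04 to 0.88) came closer to it. Sp5 was above it on 2 arrays of each group. With the 99th percentile of the receptor probe sets as background, 5 members stayed above it in both groups, namely Axin2, Tbx3, Lect2, Ctnnb1 and Tcf7l2.

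**Figure D1:**
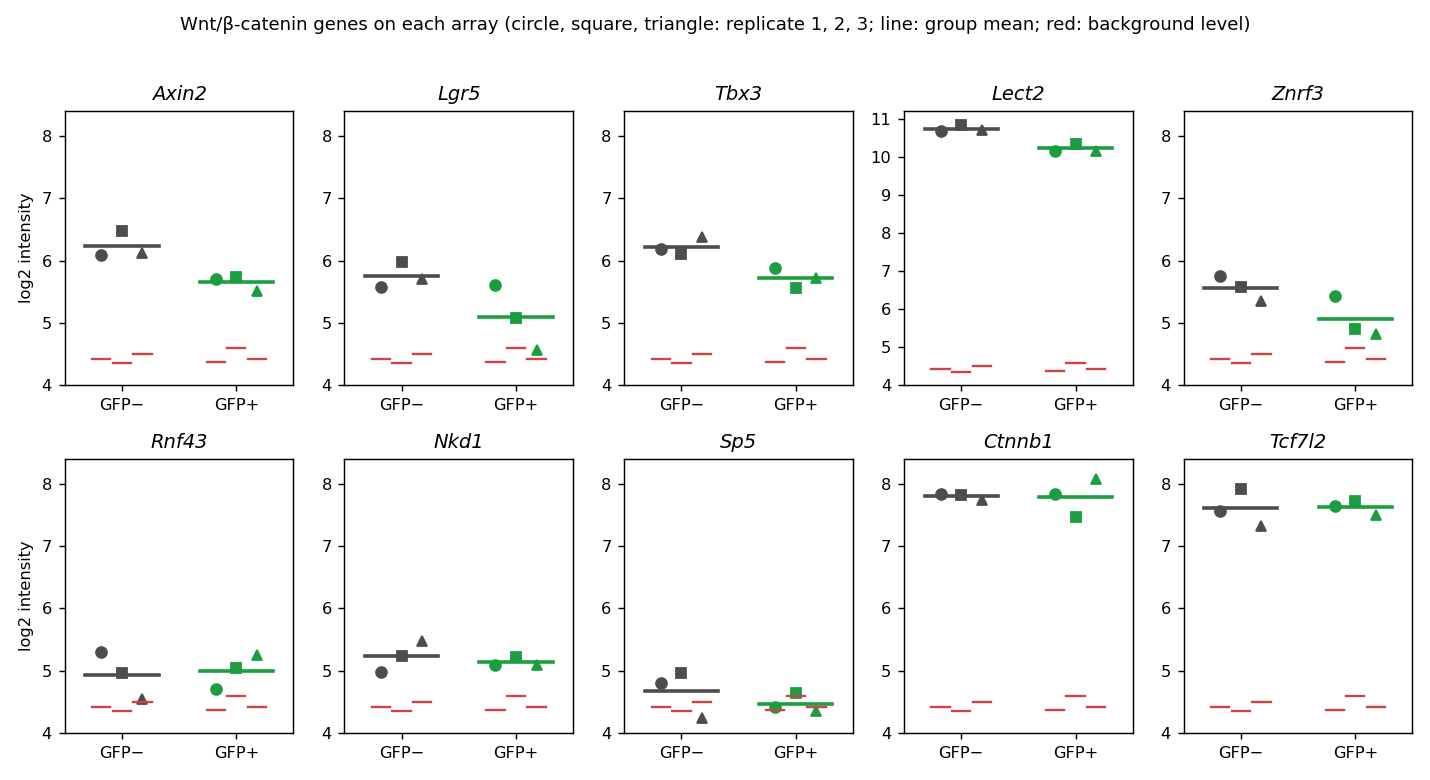
Log2 intensity (vertical axis) of each of the 10 genes on the 3 GFP-negative (grey) and 3 GFP-positive (green) arrays, with circle, square and triangle for replicates 1, 2 and 3, lines for group means and red ticks for each array's background level; the vertical range of Lect2 is wider. The green points of Axin2, Tbx3 and Lect2 all lie below the grey ones, and Sp5 sits at the red ticks.

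Axin2 (probe set 10382228) encodes a scaffold of the beta-catenin destruction complex and is a feedback target of the pathway in most tissues. Its log2 intensity was 6.10, 6.48 and 6.11 on GFP-negative arrays 1, 2 and 3, and 5.70, 5.74 and 5.51 on GFP-positive arrays 1, 2 and 3. All GFP-positive values lay below all GFP-negative ones. The means were 6.23 ± 0.22 and 5.65 ± 0.12, a difference of -0.58 ± 0.16 (95% interval -0.93 to -0.23), or 1.496-fold lower. The unadjusted p was 0.0044 and the limma adjusted p was 0.16. For arrays that share a number the difference was -0.40, -0.74 and -0.60 for numbers 1, 2 and 3. Without overlap between the groups, every such difference must lie below 0.

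Lgr5 (probe set 10372503), a receptor for R-spondins that amplifies Wnt signals and marks pericentral hepatocytes, had the largest difference of the 10 and the widest spread among GFP-positive arrays. It stood at 5.58, 5.98 and 5.71 on the GFP-negative arrays and at 5.61, 5.08 and 4.57 on the GFP-positive ones. The first GFP-positive array lay within the GFP-negative range, and the other two lay below it. The difference was -0.67 ± 0.24 (interval -1.22 to -0.12, unadjusted p = 0.021, limma adjusted p = 0.40). It was 0.03, -0.90 and -1.14 in numbers 1, 2 and 3. Without GFP-positive 3 it was -0.41 and without GFP-positive 1 it was -0.93.

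Tbx3 (probe set 10525016), a T-box transcription factor gene with high expression in pericentral hepatocytes, was 6.18, 6.11 and 6.38 in GFP-negative and 5.88, 5.56 and 5.71 in GFP-positive cells. The groups did not overlap. The difference was -0.51 ± 0.15 (interval -0.84 to -0.17, unadjusted p = 0.0074, limma adjusted p = 0.22), or 1.42-fold lower, with -0.30, -0.55 and -0.67 in numbers 1, 2 and 3.

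Lect2 (probe set 10409592), a protein secreted by hepatocytes and a known beta-catenin target in liver, had the smallest SE of the 10. Its values were 10.67, 10.83 and 10.71 in GFP-negative and 10.16, 10.34 and 10.15 in GFP-positive cells, again without overlap. The means were 10.74 ± 0.09 and 10.22 ± 0.11, a difference of -0.52 ± 0.14 (interval -0.82 to -0.22), or 1.43-fold lower. The difference was -0.51, -0.49 and -0.56 in numbers 1, 2 and 3. The unadjusted p was 0.0036, the lowest of the 10, and the limma adjusted p was 0.14. Axin2, Tbx3 and Lect2 were the 3 of 10 members whose groups did not overlap, each lower in GFP-positive cells, where 6.98% of all genes showed such a separation in that direction and 6.82% in the other.

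**Figure D2:**
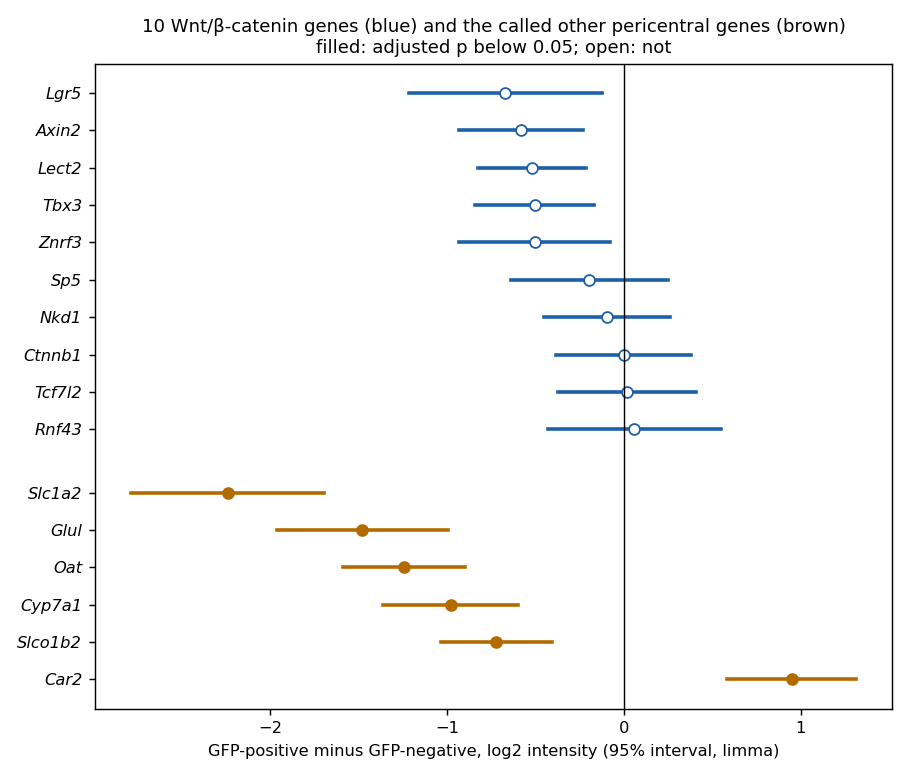
GFP-positive minus GFP-negative log2 intensity (horizontal axis) with 95% intervals from limma for the 10 genes (blue) and for the 6 other listed pericentral genes that passed (brown), filled where the adjusted p is below 0.05. The intervals of Lgr5, Axin2, Lect2, Tbx3 and Znrf3 lie below 0 with open symbols, and those of the other 5 blue genes span 0.

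TCF/LEF factors bind DNA through a short core, a form of which is written CTTTGA on one strand and TCAAAG on the other. This form was searched on both strands in the 250 bases before each start site, with overlapping matches counted separately. Other forms of the core were not searched, so a promoter without a match may still hold such a form. The search used RefSeq promoters of GRCm38.p6, where 13.8% of 32851 promoters hold at least 1 match. By symbol, 7 of the 10 genes had 10 promoters in the table, and Lgr5, Tbx3 and Znrf3 had none listed. A match was found in 2 of the 10 promoters, those of Lect2 and Sp5. Axin2, with a difference close to that of Lect2, had no match. Both promoters with a match are printed to show where the core lies. Neither member passed, with Lect2 at -0.52 and Sp5 at background, and their differences were not compared by a test. Capitals mark the searched form of the core only. Each sequence is written 5′ to 3′ along its gene and ends at the base before the start site. They lie at chr13:56548539-56548788 on the minus strand (Lect2) and chr2:70474673-70474922 on the plus strand (Sp5).
Lect2: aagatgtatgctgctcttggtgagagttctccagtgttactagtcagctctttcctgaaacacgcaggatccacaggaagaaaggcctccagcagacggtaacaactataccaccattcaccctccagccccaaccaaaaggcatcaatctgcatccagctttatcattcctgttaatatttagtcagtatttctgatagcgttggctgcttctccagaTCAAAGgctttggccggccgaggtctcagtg
Sp5: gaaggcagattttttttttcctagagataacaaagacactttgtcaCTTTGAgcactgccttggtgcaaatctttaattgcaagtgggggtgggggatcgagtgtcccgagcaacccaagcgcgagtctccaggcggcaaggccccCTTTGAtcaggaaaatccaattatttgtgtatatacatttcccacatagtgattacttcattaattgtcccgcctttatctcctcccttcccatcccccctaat
The Lect2 core lies 31 to 26 bases before the start site, in the TCAAAG orientation. The Sp5 cores begin 204 and 104 bases before it. Of the 5 other pericentral genes that passed as lower, described below, Slc1a2 held 2 matches, Glul, Oat and Slco1b2 held 0 each, and Cyp7a1 had no promoter listed. A match is a description of these letters and no evidence of binding in these cells.

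Znrf3 and Rnf43 encode paired membrane ubiquitin ligases that remove Frizzled receptors from the cell surface, and both are feedback targets. Znrf3 (probe set 10383982) was 5.76, 5.57 and 5.35 in GFP-negative and 5.43, 4.91 and 4.83 in GFP-positive cells. GFP-positive 1 lay above GFP-negative 3, so the groups overlapped. The difference was -0.50 ± 0.19 (interval -0.93 to -0.08, unadjusted p = 0.026, limma adjusted p = 0.43), and it was -0.33, -0.66 and -0.52 in numbers 1, 2 and 3. Znrf3, Axin2, Tbx3 and Lect2 were the 4 members lower in GFP-positive cells in all 3 numbers, as were 15.3% of all genes. For Axin2, Tbx3 and Lect2 this follows from the lack of overlap and adds nothing to it.

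Rnf43 (probe set 10380116) gave 5.30, 4.97 and 4.54 in GFP-negative and 4.70, 5.04 and 5.24 in GFP-positive cells. The groups covered nearly the same range, and the difference was 0.06 ± 0.22 (interval -0.43 to 0.55, limma adjusted p = 0.97). Between same-numbered arrays it was -0.60, 0.07 and 0.71, so its sign differed among pairs. Whether the differences of Znrf3 and Rnf43 differ from each other was not tested.

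Nkd1 encodes an antagonist that binds Dishevelled, and Sp5 a zinc finger factor of the Sp family; both are feedback targets of the pathway. Nkd1 (probe set 10573779) was 4.98, 5.23 and 5.48 in GFP-negative and 5.09, 5.22 and 5.10 in GFP-positive cells, where the GFP-positive values lay within the GFP-negative range. The difference was -0.09 ± 0.16 (interval -0.45 to 0.26, limma adjusted p = 0.94). Sp5 (probe set 10472688) was 4.80, 4.96 and 4.24 against 4.41, 4.64 and 4.36, values at the background level. Its difference of -0.20 ± 0.20 (limma adjusted p = 0.88) therefore says little about the transcript, and no fold is given. It was -0.41 without GFP-negative 3 and -0.049 without GFP-negative 2.

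Ctnnb1 and Tcf7l2 encode the pathway's nuclear effectors, beta-catenin itself and the TCF factor it binds. Beta-catenin is regulated mainly through the stability of the protein, which these arrays do not measure. Ctnnb1 (probe set 10590325) was 7.83, 7.81 and 7.74 in GFP-negative and 7.83, 7.47 and 8.07 in GFP-positive cells. The GFP-negative arrays lay close together between the lowest and the highest GFP-positive values. The difference was 0.00 ± 0.17 with an interval of -0.38 to 0.38 (limma adjusted p = 0.9995), and it was 0.00, -0.34 and 0.33 in numbers 1, 2 and 3. Tcf7l2 (probe set 10464084) was 7.56, 7.92 and 7.33 against 7.64, 7.72 and 7.50, a difference of 0.02 ± 0.17 (interval -0.37 to 0.40, limma adjusted p = 0.99). The intervals leave room for differences of up to about 0.4 in either direction for both genes.

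**Figure D3:**
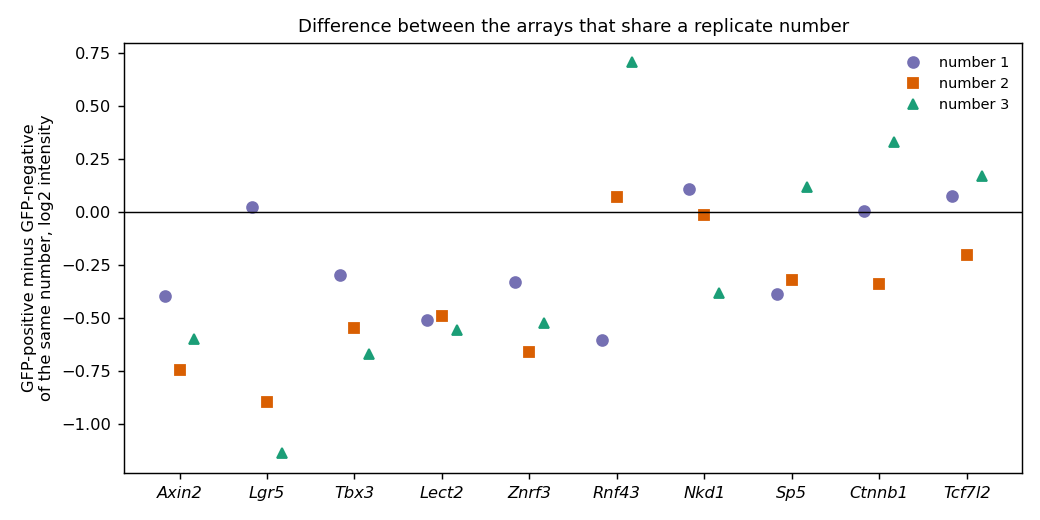
Difference in log2 intensity (vertical axis) between the GFP-positive and GFP-negative arrays that share replicate number 1 (circle), 2 (square) or 3 (triangle), for each of the 10 genes. All 3 points lie below 0 for Axin2, Tbx3, Lect2 and Znrf3, and the points of Rnf43 run from -0.60 to 0.71.

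The replicate numbers bear on these pairs. Xist was 9.03 and 9.80 in number 2 of GFP-negative and GFP-positive cells and at most 4.04 on the other 4 arrays. Eif2s3y went the other way, at 1.98 and 2.24 in number 2 and at least 6.78 on the other 4. Number 2 thus stood apart in sex-linked expression in both fractions. The median difference of the 10 genes was -0.32, -0.42 and -0.45 in numbers 1, 2 and 3. When both number 2 arrays were left out, the difference was -0.50 for Axin2, -0.48 for Tbx3, -0.53 for Lect2, -0.56 for Lgr5 and -0.43 for Znrf3, and 0.17 for Ctnnb1.

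Some other pericentral genes that depend on Wnt signals passed as lower. Of 24 listed genes besides the 10, 5 fell and 1 rose, where 0.115% and 1.55% of all genes did so. The 5 were among 23 genes that passed as lower over all genes. The median difference of the 24 was -0.64. The 24 lay below 0 in 22 cases. The list was chosen with earlier results of these data known and is no independent evidence of direction. Glul, the glutamine synthetase gene confined to the hepatocytes next to the central vein, was 10.29, 10.43 and 10.31 in GFP-negative and 9.02, 8.35 and 9.22 in GFP-positive cells. Its difference of -1.48 ± 0.21 (interval -1.96 to -0.998, limma adjusted p = 0.0055) stands beside -0.58 (interval -0.93 to -0.23) for Axin2.

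Slc1a2, a glutamate transporter gene, was 7.78, 7.85 and 6.88 against 5.41, 5.20 and 5.18 (difference -2.24 ± 0.24, limma adjusted p = 0.00073). Oat, which encodes ornithine aminotransferase, differed by -1.24 ± 0.15 (limma adjusted p = 0.0019). Cyp7a1, whose enzyme starts the classical route from cholesterol to bile acids, differed by -0.98 ± 0.17 (limma adjusted p = 0.017). Its adjusted p was 0.080 without GFP-positive 1, 0.068 without GFP-positive 2 and 0.098 without both arrays of number 2. Slco1b2, an organic anion transporter gene named as the fifth fall after its values were seen, differed by -0.72 ± 0.14 (limma adjusted p = 0.034). It did not pass without GFP-negative 1, 2 or 3 or GFP-positive 1 or 3 (adjusted p between 0.091 and 0.17), nor without both arrays of number 2 (0.084) or with the replicate number as a block (0.062). Glul, Slc1a2 and Oat passed under every alternative that was run. With the replicate number as a block 6 listed genes passed as lower, Slco1b2 no longer among them and Gulo and Slc13a3 added, both named after their values were seen. Gulo, whose enzyme completes vitamin C synthesis in mice, differed by -1.08 ± 0.23 (limma adjusted p = 0.054, and 0.021 with the block). Slc13a3, a dicarboxylate transporter gene, differed by -0.95 ± 0.24 (limma adjusted p = 0.13, and 0.028 with the block).

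Car2, a carbonic anhydrase gene, was the listed gene that rose, and it too was named after its values were seen. It was 4.60, 4.96 and 4.56 in GFP-negative and 5.84, 5.52 and 5.59 in GFP-positive cells (difference 0.95 ± 0.16, limma adjusted p = 0.016). Background stood at 4.42, 4.36 and 4.50 on GFP-negative arrays 1, 2 and 3. The GFP-negative values of Car2 thus came close to background, and no fold is given. Car2 did not pass without GFP-negative 1 (0.085), GFP-negative 3 (0.073), GFP-positive 1 (0.085) or GFP-positive 3 (0.058). Of 19 listed periportal genes, which mark the opposite end of the lobule, 15 were measured. Ass1, Gls2, Sds and Sdsl had no probe set assigned to that symbol alone. None of the 15 passed with limma, and 1 had an unadjusted p below 0.05 in each direction. Over all genes 3.79% had such a p as lower and 5.01% as higher. The median difference of the 15 was 0.13. This median was 0.26, -0.33 and 0.55 in numbers 1, 2 and 3, so number 2 had the opposite sign. The largest of these differences, that of the aldehyde dehydrogenase gene Aldh1b1, was 0.73 ± 0.33 (limma adjusted p = 0.58).

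**Figure D4:**
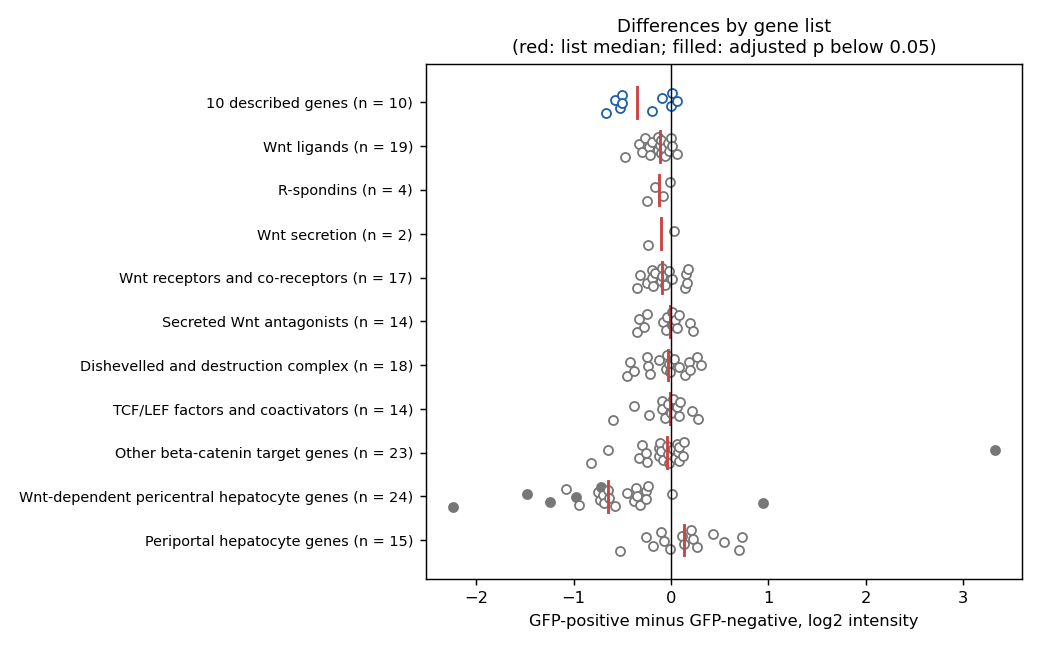
GFP-positive minus GFP-negative log2 intensity (horizontal axis) of each measured gene, by gene list with the 10 genes in blue and left out of the other lists; red bars are list medians and filled points have a limma adjusted p below 0.05. The medians are -0.35 for the 10 genes, -0.64 for the other pericentral genes and 0.13 for the periportal genes, and the filled point at the right is Birc5.

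Upstream of the targets, none of 88 other genes of the Wnt pathway in 7 lists passed with limma. Of these genes, 2 had an unadjusted p below 0.05 in the lower direction and none in the higher, beside 3.79% and 5.01% of all genes. Their median difference was -0.07, and 61 of the 88 lay above background in at least 1 group, as did 60.5% of all genes. Of 19 Wnt ligand genes, 10 lay above background in a group and the median was -0.11. Wnt2, one of the Wnts of liver endothelium, was 4.71, 4.90 and 4.93 in GFP-negative cells and 4.27, 4.49 and 4.37 in GFP-positive cells, where no array lay above background. The groups did not overlap (difference -0.47 ± 0.14, unadjusted p = 0.0075, limma adjusted p = 0.22), and no fold is given. Wnt9b, the other Wnt known from central vein endothelium, was 5.11 ± 0.36 against 5.03 ± 0.06 (limma adjusted p = 0.97). Rspo3, the R-spondin of the same cells, lay below background on all 6 arrays.

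Among 4 R-spondin genes the median was -0.12, and Rspo1 differed most among those above background (-0.25 ± 0.19). Of the genes for Wnt secretion, Porcn, the acyltransferase that lipidates Wnt proteins, differed by 0.03 ± 0.14. Among 17 receptor and co-receptor genes the median was -0.10, with Fzd6 furthest from 0 among those above background (-0.32 ± 0.16). Among 14 secreted antagonists and their receptors the median was -0.01, with Kremen1, a receptor for Dkk proteins, at -0.35 ± 0.18. Among 18 genes of Dishevelled and the destruction complex the median was -0.03, with Rnf146, a ubiquitin ligase that targets axin, at -0.46 ± 0.21. Each of these genes had a limma adjusted p of at least 0.577.

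Among 14 TCF/LEF factors and cofactors the median was -0.02. Tle1, a Groucho-type corepressor of TCF factors, was 6.53, 6.50 and 6.64 in GFP-negative and 6.26, 5.26 and 6.35 in GFP-positive cells (difference -0.60 ± 0.26, unadjusted p = 0.046, limma adjusted p = 0.55). GFP-positive 2 stood far below the other 2 arrays of its group.

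Of 23 other genes known as beta-catenin targets in various tissues, Birc5 rose and none fell, where 1.55% and 0.115% of all genes did so. The median difference of the 23 was -0.05, and 14 of them lay below 0, as did 55.7% of all genes. Birc5 encodes survivin, a subunit of the chromosomal passenger complex that acts in mitosis, and it went from 6.49 ± 0.13 to 9.83 ± 0.21 (10.1-fold higher, limma adjusted p = 2.2e-06). It is also one of 7 proliferation genes used to check the sort, all of which rose, such as Cdk1, the kinase that drives entry into mitosis, by 22.7-fold (limma adjusted p = 1.2e-06).

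Hepatocyte markers were high in both fractions. All 9 measured ones lay above background, with Alb, the albumin gene, at 13.31 ± 0.05 on GFP-negative and 13.25 ± 0.06 on GFP-positive arrays. Their summed intensity ran from 50019 to 52619 on GFP-negative and from 46082 to 47201 on GFP-positive arrays, and their median difference was -0.14. None of the 9 passed with limma, and none had an unadjusted p below 0.05. Of the 9, 8 lay below 0, as did 55.7% of all genes. The groups did not overlap for 4 of them, all lower in GFP-positive cells, a separation seen in 6.98% of all genes.

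Markers of other liver cells, which can also express Wnt pathway genes, were measured beside the 10 genes. For 15 endothelial markers, 13 of them above background, the summed intensity ran from 507 to 628 in GFP-negative and from 455 to 485 in GFP-positive cells. None of the 15 passed with limma and 2 had an unadjusted p below 0.05, both lower, where 3.79% of all genes had such a p. Stab2, a scavenger receptor of sinusoidal endothelium, differed by -0.26 ± 0.13 (limma adjusted p = 0.66) and Cdh5, an endothelial cadherin gene, by -0.71 ± 0.27 (limma adjusted p = 0.44). The groups of Cdh5 overlapped, and its difference was -0.68, -1.45 and 0.02 in numbers 1, 2 and 3. For 12 stellate cell and fibroblast markers, 9 above background, the sums were 503 to 571 and 387 to 432. None passed with limma, and 4 had an unadjusted p below 0.05 in the lower direction, beside 3.79% of all genes. Dcn, a matrix proteoglycan gene, differed by -0.86 ± 0.26 (limma adjusted p = 0.24), with -0.16, -1.17 and -1.25 in numbers 1, 2 and 3.

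For 13 Kupffer cell markers, 3 above background, the sums were 278 to 339 and 237 to 256. Their median difference was -0.24, and 9 of the 13 lay below 0, as did 55.7% of all genes. An unadjusted p below 0.05 in the lower direction was found for 2, beside 3.79% of all genes, and none in the higher. Clec4f, their defining marker, was the 1 that passed with limma, where 0.115% of all genes passed as lower. It fell by 0.68 on the log2 scale (SE 0.13, limma adjusted p = 0.032). This call was lost without each single array in turn (adjusted p between 0.070 and 0.15) and with the replicate number as a block (0.077). Cholangiocyte markers (3 of 7 above background, sums 208 to 247 and 212 to 222), lymphoid markers (1 of 8, 114 to 161 and 124 to 135), neutrophil markers (1 of 7, 130 to 198 and 109 to 133) and erythroid markers (3 of 4, 138 to 252 and 150 to 193) had no member that passed with limma. Krt19, a keratin of bile duct cells, lay below background on all arrays. The part of these cells in the differences of the 10 genes was not tested.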

How the data were processed

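Gene expression was measured on Affymetrix arrays from total RNA (10 ng per sample, amplified), per the labels' protocols. The authors deposited an intensity for every probe set on every array, computed with RMA per the submitters' processing notes; its version and the genome build are not stated in the sources used here. They are on a linear scale (1.62 to 15836, array medians 24.3 to 26.7), so log2 was taken, with no further normalization or filter. Of 35512 probe sets, 21789 have 1 gene symbol in the platform annotation, 1621 several and 12102 none. A gene was its probe set with the highest mean (19938 genes). Groups were compared in R 4.3.3 by limma 3.58.1 (a linear model with eBayes, 4 residual and 5.44 prior degrees of freedom), adjusted over all genes at 0.05. Tables and plots used Python 3.11.15. The number of arrays limits the precision. In simulated data for 19938 genes, log2 differences of 0.5, 1, 2 and 3 were given to 50 genes each. They were called in 4%, 70%, 98% and 96% of these genes, and 3.6% of calls were false. On the arrays themselves 310 genes passed as higher and 23 as lower, so the unadjusted p needed to pass may differ. Simulated noise was set from the spread of these few arrays, and the shares need not hold for the 10 members.

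The members and lists were chosen with earlier results of these data known. Named were the 10 members, the called genes of each list (at most the 4 with the largest difference) or the gene above background with the largest difference, and preset markers. The arrays come from 3 livers per the design text, but the labels do not tie replicate numbers to animals. Xist and Eif2s3y group both arrays of number 2, and the correlation of same-numbered deviations across genes was 0.20, 0.06 and -0.05 for 1, 2 and 3. Alternatives were the replicate block, other normalizations, filters, probe set rules, variance models and thresholds, and leaving out arrays.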

Additional observations from a re-analysis of the deposited data

How the results depend on the processing

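None of the 10 genes passed under any of 16 alternatives, and the lowest adjusted p was 0.057, for Lect2 with array weights or an intensity trend. With the replicate number as a block none passed either (Axin2 0.17, Lect2 0.22, Lgr5 0.32), the count of genes lower was 28 against 23 and that of genes higher 327 against 310. Axin2, Lgr5, Tbx3, Sp5, Znrf3 and Lect2 stayed below 0 in all 16, with ranges of -0.65 to -0.46 for Axin2 and -0.58 to -0.47 for Lect2. The sign of genes near 0 turned: with array weights Rnf43 was -0.16, Ctnnb1 0.044 and Tcf7l2 -0.0101, and Tcf7l2 was also -0.015 with each array centred on its median and -0.012 with quantile normalization. Without both arrays of number 2 Ctnnb1 was 0.17. When single arrays were left out, Nkd1 ran from -0.22 to 0.030, Rnf43 from -0.14 to 0.24, Ctnnb1 from -0.14 to 0.16 and Tcf7l2 from -0.12 to 0.17. The median of the 10 ran from -0.42 to -0.27 in these, with -0.27 without GFP-negative 2 and without GFP-positive 3.

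The number of members above background in both groups was 9. It was 5 with the 99th percentile, 7 with each array's median as background and 10 where 2 of 3 arrays sufficed. Over all genes, 53 were lower with array weights, 13 with centring, 38 with quantile normalization, 46 at a threshold of 0.1 and 9 without both arrays of number 2, and between 6 and 29 without single arrays. The other pericentral genes called lower, 5 in the report, were 3 without number 2 and between 3 and 4 without single arrays. They were 7 with array weights, quantile normalization or a threshold of 0.1, and 6 with the replicate block, an intensity trend or a filter on low means. Those called higher were between 0 and 1. The causes were not tested. With 3 arrays a group, differences near 0.5 were mostly missed in the simulated data, a share that need not hold for the members. Differences of members near background may be understated.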
